A study of Homo sapiens with 29 samples.

Results

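The FOXA transcription factors FOXA1, FOXA2 and FOXA3, the noncoding RNA LINC00261 and the endoderm-associated genes SOX17, CXCR4, CST1, PRDM1 and HHEX were followed in a differentiation course that lacked FGF2. These 9 genes, of 20046 named genes on the array, were taken by their symbols in the array's probe annotation, and they were picked in part because several stood highest in cells induced without FGF2. Signals in that arm are therefore given as a description. Standing highest is a rank among all arms, so the values of the other arms entered the choice in part as well, and the tests between those arms given below are not independent of it.

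The cells were HuES6, an established line of human embryonic stem cells, driven toward heart muscle in a defined medium from which insulin was withdrawn after day 0. In 3 of the 4 arms 1 inducing agent was left out: BW had BMP4 and the WNT activator but no FGF2, FB had FGF2 and BMP4 but no WNT activator, and FW had FGF2 and the WNT activator but no BMP4. The FBW arm had all of them and was the full induction. According to the labels the agents were given on day 0, with 10 ng/ml FGF2, 1 ng/ml BMP4 and 1 uM of the activator, which they call CHIR00921, and IWP-2, an inhibitor of WNT secretion, was given at 2 uM on days 2 and 3. Each arm had 1 Illumina bead array on each of days 1, 2, 3, 4, 5, 6 and 8, and 1 array held undifferentiated cells of day 0, which makes 29 arrays of 1 cell line.

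FOXA proteins are pioneer factors that open chromatin at endoderm and foregut genes, and SOX17 acts with them in definitive endoderm, the sheet that gives rise to gut, liver and lung. In human stem cells definitive endoderm is made under strong Nodal or Activin signalling, and its surface is commonly recognised by the chemokine receptor CXCR4. Several of these genes are also used elsewhere: FOXA2 also marks notochord and floor plate, SOX17 and HHEX are used by early endothelium, and PRDM1 with SOX17 is used by human primordial germ cells.

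Values are background-corrected, normalised log2 signals unless stated, in which 1 unit is a 2-fold step, and a probe counted as detected at a detection p under 0.01. Between 16218 and 18796 of 47323 probes were detected per array. All 9 genes had a detected probe on some arrays. Signals of different probes cannot be ranked against each other. A lower signal of a gene in these bulk samples cannot be told apart between fewer cells of a type and less RNA per cell. The FBW arrays of days 3 and 6 are also part of another series according to the labels, so results that moved without those days are named where they occur. With 1 array per arm and day, days stand in for repeats in the tests between arms, which show the steadiness of a difference over the course and not its variation between differentiations. The p-values are too small to the extent that neighbouring days are related.

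FOXA2, FOXA1 and LINC00261 were all high in BW from day 3 on, and FOXA2 came up first. FOXA2 had 6.69, 9.50, 9.66, 10.33, 10.14, 10.06 and 9.35 in BW on days 1, 2, 3, 4, 5, 6 and 8. It had 6.22, 8.46, 8.80, 7.93, 6.63, 4.38 and 4.36 in FB, the last 2 not detected, and 8.00, 7.73, 7.08, 6.33, 4.85, 4.43 and 4.19 in FW, the last 3 not detected. The FBW arm had 6.72, 7.47, 8.58, 8.70, 8.82, 7.81 and 7.13, and undifferentiated cells had 7.59. From day 2 on BW was the highest arm, and from day 4 on none of its values overlapped those of another arm. The BW minus FBW difference averaged 1.86 ± 0.46 over days 4 to 8 (SD, n = 4 days) and 1.03 ± 1.03 over days 1 to 3 (SD, n = 3 days). In BW the signal on day 4 was 6.67-fold that of day 0. These values come from 1 of 3 FOXA2 probes, since the other two were not detected on any array.

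FOXA1, which acts together with FOXA2 in foregut and liver, came up a day later. In BW it had 4.56, 5.25, 7.65, 7.65, 7.62, 7.31 and 6.83, with the day 1 value not detected. In FB it reached 6.42 on day 3 and was not detected from day 5 on, and in FW it was detected on day 3 alone, at 5.32. In FBW it had 4.42 and 4.59, both not detected, and then 6.73, 6.55, 6.60, 6.26 and 5.16. FOXA1 was not detected on day 0, and on day 4 BW stood at least 6.60-fold above it. BW exceeded FBW on all 7 days, by 1.21 ± 0.31 over days 4 to 8 (SD, n = 4 days). On day 1, however, neither arm was detected, and on day 2, with FBW not detected, BW was at least 1.15-fold higher. A bound such as "at least" is taken against the dimmest signal that counted as detected on that array, or the probe's own if that was higher.

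FOXA3, which serves liver and gut together with the other two, behaved differently and was detected on all 29 arrays. Its day 0 signal was 8.14, and across days 1 to 8 it lay between 7.08 and 8.71 in BW (median 8.14), between 5.98 and 8.46 in FB (median 8.22), between 6.48 and 8.28 in FW (median 8.17) and between 6.52 and 8.32 in FBW (median 8.04). The 4 ranges overlapped throughout, and every arm was lowest on day 8. BW was above FBW on each of days 4 to 8, by only 0.45 ± 0.08 (SD, n = 4 days).

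**Figure D1:**
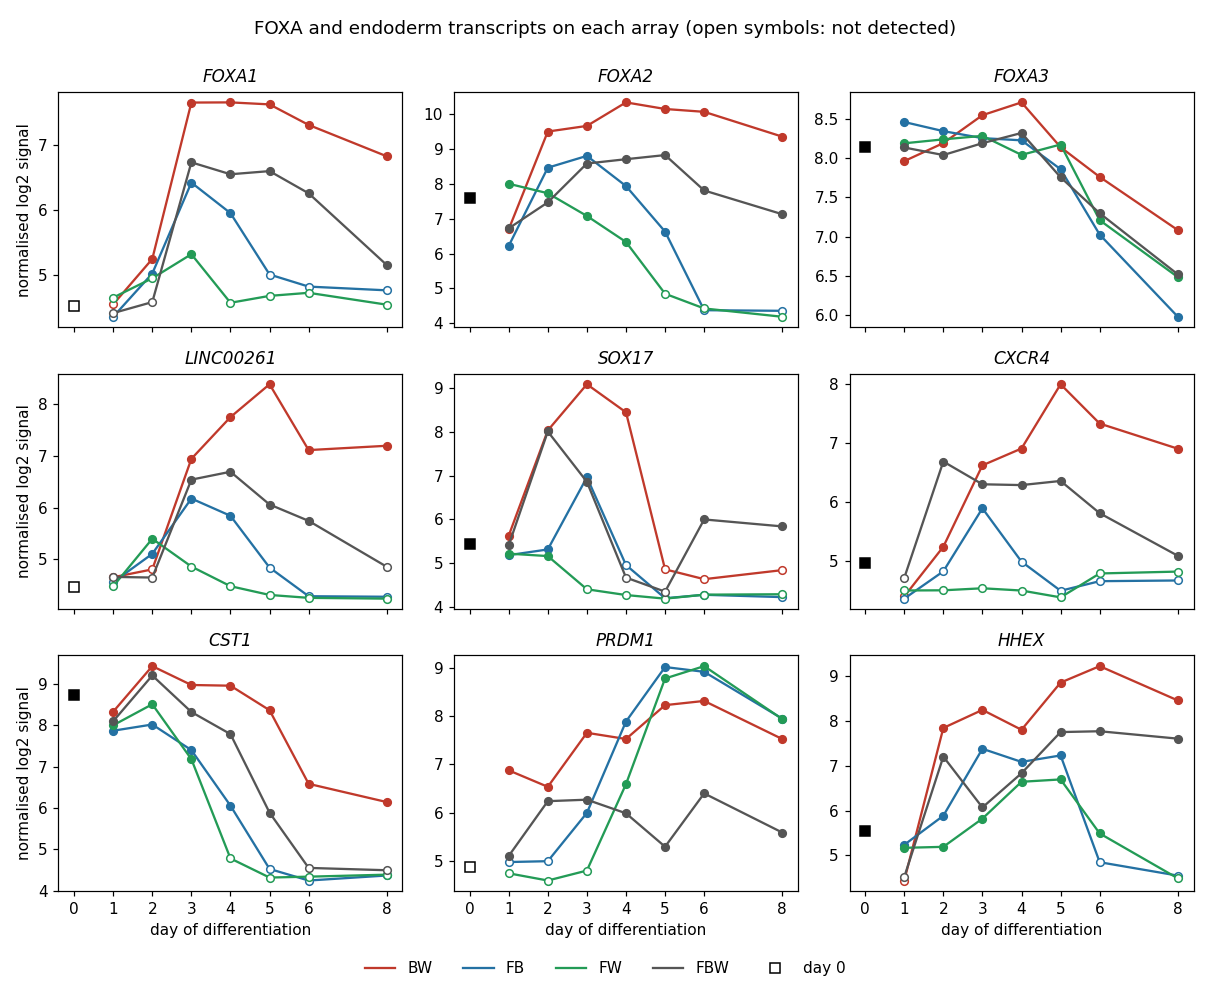
Normalised log2 signal (vertical axes) of each of the 9 genes against day of differentiation (horizontal axes) for the BW, FB, FW and FBW arms, 1 array per point, with day 0 as a square and open symbols for signals that were not detected. FOXA2 in BW stays between 9.35 and 10.33 from day 2 to day 8, whereas PRDM1 is highest in FB or FW from day 4 on.

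LINC00261 is a long noncoding RNA transcribed beside FOXA2 on chromosome 20. In GRCh38.p14 the RNA lies at chr20:22560553-22578642 and FOXA2 at chr20:22580998-22585490, with 2355 bases between them, while CST1 lies on the same chromosome at chr20:23747562-23750935. LINC00261 was not detected on day 0. In BW it had 4.65 and 4.80, both not detected, and then 6.94, 7.75, 8.39, 7.11 and 7.20 on days 3, 4, 5, 6 and 8. In FB it was detected on days 2, 3 and 4, at 5.10, 6.18 and 5.84, and in FW on day 2 alone, at 5.40. In FBW it was detected on days 3 to 6, at 6.54, 6.69, 6.06 and 5.74. From day 4 on the BW values lay above those of every other arm, and BW minus FBW was 1.78 ± 0.66 (SD, n = 4 days). That mean includes the undetected FBW signal of day 8, when BW was at least 4.50-fold higher. A second LINC00261 probe was likewise highest in BW on days 3 to 8, between 5.39 and 6.80.

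The 250 bases before the start of LINC00261 (chr20:22578643-22578892, minus strand) and of FOXA1 (chr14:37595250-37595499, minus strand) are shown because these 2 RNAs had the highest Pearson correlation of any pair of members, and those before the upstream PRDM1 start in the table (chr6:106086086-106086335, plus strand) because PRDM1 ran apart from them. The sequences are RefSeq's for GRCh38.p14, read 5′ to 3′ along the transcribed strand. Capitals mark matches, on either strand, to the forkhead letters TGTTTAC, the GATA letters AGATAA, the SOX letters ACAATNG and the TCF/LEF letters CTTTGA.
LINC00261: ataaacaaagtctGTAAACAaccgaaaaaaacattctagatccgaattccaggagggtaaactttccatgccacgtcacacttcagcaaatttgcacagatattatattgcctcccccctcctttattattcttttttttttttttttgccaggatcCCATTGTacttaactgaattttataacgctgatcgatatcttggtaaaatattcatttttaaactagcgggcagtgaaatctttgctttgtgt
FOXA1: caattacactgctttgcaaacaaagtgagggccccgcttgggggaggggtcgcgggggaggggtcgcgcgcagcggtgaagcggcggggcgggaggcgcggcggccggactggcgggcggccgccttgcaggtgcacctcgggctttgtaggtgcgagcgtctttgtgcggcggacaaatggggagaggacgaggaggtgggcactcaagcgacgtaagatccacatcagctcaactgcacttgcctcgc
PRDM1: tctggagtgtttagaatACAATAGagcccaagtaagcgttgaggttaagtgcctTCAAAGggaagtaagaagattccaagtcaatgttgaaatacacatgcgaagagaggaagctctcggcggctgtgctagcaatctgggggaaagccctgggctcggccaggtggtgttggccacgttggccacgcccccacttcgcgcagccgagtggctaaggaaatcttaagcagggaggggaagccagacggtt

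The LINC00261 window held a forkhead match starting 237 bases before the transcript start and a SOX match 93 bases before it, both on the opposite strand. No FOXA1 match was found to any of the letters, nor any in the windows of FOXA3, CXCR4 and HHEX. The PRDM1 window held a SOX match at 233 bases and a TCF/LEF match at 196 bases before the start. Its second start in the table had a TCF/LEF match at 38 bases. Of 35116 promoters of the same length, 2.979% held the forkhead letters, 9.167% the GATA letters, 6.006% the SOX letters and 11.21% the TCF/LEF letters. The matches are a description of letters, in windows available for 6 of the 9 genes.

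SOX17 was brief where FOXA2 was lasting, and it was already detected on day 0. In BW it had 5.63, 8.03, 9.08 and 8.44 on days 1 to 4 and was not detected on days 5, 6 and 8, at 4.86, 4.64 and 4.84. In FB it was detected on days 1 to 3, at 5.18, 5.31 and 6.96, and in FW on days 1 and 2, at 5.22 and 5.16. In FBW it had 5.41, 8.00 and 6.86 on days 1 to 3, was not detected on days 4 and 5, and was back at 6.00 and 5.84 on days 6 and 8. BW and FBW therefore had nearly the same SOX17 on day 2, BW was higher by 2.23 on day 3 and by a measured 3.77 on day 4, when FBW was not detected, and FBW was the higher on days 6 and 8. The window mean of 0.48 ± 2.34 (SD, n = 4 days) hides that change of order, and without day 4 it was -0.62.

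On days 6 and 8, when SOX17 was detected in FBW and not in BW, endothelial transcripts were detected in both arms. Of 15 endothelial markers with a probe, 10 and 11 were detected in BW on those days, against 12 and 11 in FBW. Their summed linear signal was 1851 and 2348 in BW and 2773 and 2781 in FBW. CDH5, the endothelial cadherin, was 7.05, 7.94 and 8.17 in BW and 7.36, 8.42 and 8.65 in FBW on days 5, 6 and 8. The part of endothelial cells in the SOX17 signal was not tested.

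HHEX, a homeobox repressor of foregut endoderm and early blood vessel precursors, was detected on day 0. In BW it was not detected on day 1 and then had 7.84, 8.24, 7.80, 8.85, 9.22 and 8.45. In FB its highest value was 7.38, on day 3, and it was not detected on days 6 and 8, and in FW its highest value was 6.69, on day 5. In FBW it was not detected on day 1 and then had 7.20, 6.07, 6.83, 7.75, 7.77 and 7.60. BW was above FBW on each day from day 2 on, by 1.09 ± 0.26 over days 4 to 8 (SD, n = 4 days), and the lowest BW value of that window, 7.80, lay just above the highest FBW value, 7.77.

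CXCR4, the receptor for the chemokine CXCL12, was slower in BW than in FBW and ended higher. Its brightest probe was detected on day 0. On days 1 to 8 BW had 4.40, which was not detected, and then 5.24, 6.62, 6.90, 7.99, 7.33 and 6.90. In FB it was detected on day 3 alone, at 5.89, and in FW on no day. FBW had 4.71, which was not detected, then 6.68, 6.30, 6.29, 6.36, 5.81 and 5.09. On day 2 BW stood 1.44 below FBW, and over days 4 to 8 it stood 1.40 ± 0.53 above it (SD, n = 4 days) with no overlap. A second CXCR4 probe gave 5.97 to 7.18 in BW on days 4 to 8 and at most 5.52 in FBW. CXCL12 itself, named here for its role as the ligand, was detected on all 29 arrays. It averaged 9.25 in BW and 7.46 in FBW on days 1 to 3 and 9.33 in BW and 8.78 in FBW on days 4 to 8, and did not pass in either window (limma adjusted p of 0.151 and 0.195).

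CST1 encodes a secreted cystatin, an inhibitor of cysteine proteases. Its signal was already 8.74 on day 0. BW had 8.33, 9.43, 8.98, 8.96, 8.37, 6.59 and 6.15. FB had 7.87, 8.02, 7.40 and 6.06 on days 1 to 4, FW had 8.00, 8.51 and 7.18 on days 1 to 3, and both were not detected afterwards. FBW had 8.10, 9.20, 8.32, 7.79 and 5.89 on days 1 to 5 and was not detected on days 6 and 8. BW was the one arm in which CST1 was detected on each day, with BW minus FBW at 1.83 ± 0.56 over days 4 to 8 (SD, n = 4 days). That mean includes the undetected FBW signals of days 6 and 8, when BW was at least 3.28-fold and 2.17-fold higher. The gene has near-identical neighbours in its family, and the identity of the probe is uncertain to that extent, although the probe of CST2 was detected on 1 array and that of CST4 on 0.

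PRDM1, which encodes the repressor BLIMP1, had FB or FW, and not BW, as its highest arm on days 4 to 8. BW had 6.88, 6.54, 7.66, 7.53, 8.23, 8.32 and 7.53. FB was not detected on days 1 and 2 and then had 6.00, 7.89, 9.02, 8.92 and 7.95, and FW was not detected on days 1 to 3 and then had 6.59, 8.78, 9.04 and 7.94. FBW had 5.11, 6.24, 6.27, 5.99, 5.30, 6.40 and 5.59. BW was the highest arm on each of days 1 to 3, FB or FW on each day from day 4 on, and FBW was the lowest arm on each of those days. BW minus FBW was 1.15 ± 0.76 over days 1 to 3 (SD, n = 3 days) and 2.08 ± 0.60 over days 4 to 8 (SD, n = 4 days). Another PRDM1 probe, dimmer than this one, was detected on 3 BW, 4 FB and 3 FW arrays from day 4 on and on 0 FBW arrays.

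Over all 9 genes, BW was the highest of the 4 arms for 3, 6, 9, 8, 7, 7 and 7 genes on days 1, 2, 3, 4, 5, 6 and 8. On days 4 to 8, 8 of 9 stood above FBW on each day, with a median difference of 1.40, while over the 12060 genes tested the median was 0.00. With quantile normalisation and no background correction the members' median was 0.84. Of all genes, 13.2% were called higher in BW and 12.5% lower, but since the rule drew on BW nothing is read from the members' count. FOXA3 had the smallest of these steady differences, and SOX17 was the gene whose sign changed within the window. On days 1 to 3, 4 of 9 were higher on each day and the median difference was 0.57, which ran from 0.23 to 0.79 with a day left out. FOXA1 is among the 4 although it was not detected in either arm on day 1.

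Without the WNT activator or without BMP4 most of the set fell on days 4 to 8. The choice of genes highest in BW favours genes that are lower in the other arms, FBW included, so the counts are given beside those of all genes and nothing is read as particular to the set. In FB minus FBW, FOXA1, FOXA2, LINC00261, CXCR4 and HHEX fell, PRDM1 rose, and FOXA3, SOX17 and CST1 did not pass (limma, Benjamini-Hochberg adjusted p of 0.05 over all genes tested). These are 5 of 9 genes lower, 55.6%, where 26.1% of all 12060 genes were called lower, and 1 of 9 higher, 11.1%, where 27.9% of all genes were called higher. The median of the 9 differences was -1.00, against 0.02 over all genes tested. FB and FW share the FBW arrays they are compared with, and their results are not independent.

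Markers of other cell types moved in the same comparisons. On days 4 to 8, 10 of 12 endothelial genes and 9 of 10 heart genes fell in FB and likewise in FW, with 0 higher. Amnion and surface ectoderm genes rose in 7 of 10 cases and fell in 1 in each arm, and primordial germ cell genes rose in 5 of 6 cases in each with 0 lower. Epithelial genes rose in 10 of 13 cases in both, with 0 lower in FB and 1 lower in FW. Of 6 notochord and floor plate genes 1 rose and 4 fell in each. The part of these cell types in the members' calls was not tested.

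FOXA2 averaged 5.82 ± 1.76 in FB and 8.12 ± 0.80 in FBW (SD, n = 4 days each), a difference of -2.29 ± 0.42 (SE; limma adjusted p = 0.000688), lower on 4 of 4 days. It was detected in FB on 2 of those days, so the mean includes undetected signals. FOXA1 averaged 5.14 ± 0.55 in FB and 6.14 ± 0.67 in FBW, a difference of -1.00 ± 0.23 (SE; limma adjusted p = 0.00302). LINC00261 differed by -1.03 ± 0.27 (SE; limma adjusted p = 0.00701). Both were lower on 4 of 4 days, although the LINC00261 call was lost without day 6, with a limma adjusted p of 0.0640. On day 8 LINC00261 was not detected in FB or FBW. Its second probe had 5.07, 5.15, 4.74 and 4.39 in FB on days 4, 5, 6 and 8, detected on day 5 alone. In FBW that probe had 5.44, 5.53, 5.07 and 4.73, the last not detected. CXCR4 was not detected in FB in that window and averaged 4.70 ± 0.21 there and 5.88 ± 0.58 in FBW, at least 1.68-fold lower (limma adjusted p = 0.00329). HHEX fell by 1.56 on the log2 scale, with an SE of 0.55 and a limma adjusted p of 0.0302. It was lower on 3 of 4 days, and without day 5, day 6 or day 8 the call was lost, at limma adjusted p values of 0.0537, 0.177 and 0.160. It was also lost without day as a block and with only FB and FBW in the fit.

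In FW minus FBW the same 5 genes fell, CST1 joined them and PRDM1 rose again, which makes 6 of 9 genes lower, 66.7%, where 28% of all genes were called lower, and 1 of 9 higher, where 29.9% of all genes were. FOXA2 averaged 4.95 ± 0.96 in FW against 8.12 ± 0.80 in FBW (SD, n = 4 days each), a difference of -3.17 ± 0.42 (SE; limma adjusted p = 5.85e-05). It was detected in FW on 1 of those 4 days, so this is a measured difference that includes undetected signals. FOXA1, LINC00261, CXCR4 and CST1 were not detected in FW on days 4 to 8. They were at least 2.07-fold, 1.68-fold, 1.74-fold and 1.51-fold lower than in FBW, with limma adjusted p values of 0.000163, 0.000519, 0.00196 and 0.0243. CST1 was the least steady of these, since its difference of -1.22 rests on FBW days 4 and 5, and the call was lost without day 4 or day 5, at limma adjusted p values of 0.185 and 0.0957, and also with quantile normalisation alone, without day as a block and with array weights. HHEX differed by -1.66 ± 0.55 (SE; limma adjusted p = 0.0214), and its call was lost without day 5, day 6 or day 8, at 0.0547, 0.0821 and 0.118.

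PRDM1 rose in both arms, by 2.62 ± 0.33 in FB (SE; limma adjusted p = 5.11e-05) and by 2.27 ± 0.33 in FW (SE; limma adjusted p = 0.000126), on 4 of 4 days in each. It averaged 8.44 ± 0.61 in FB, 8.09 ± 1.10 in FW and 5.82 ± 0.48 in FBW (SD, n = 4 days each). FOXA3 did not pass in either arm, with -0.20 ± 0.14 in FB and 0.00 ± 0.14 in FW (SE; limma adjusted p of 0.249 and 0.983). SOX17 did not pass either, with limma adjusted p values of 0.300 and 0.211, and was not detected in FB or FW in that window.

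In the order of mean levels on days 4 to 8, BW came before FBW, FBW before FB and FB before FW for 7 of the 9 genes. The exceptions were FOXA3, with BW first and FB last, and PRDM1, with FB first and FBW last. That BW came first is in part set by the choice of genes. The share of all genes in this order was not counted, so nothing is read from the count. SOX17 and CXCR4 were not detected in FB or FW on those days, and CST1 was detected on 1 day in FB and 0 in FW. Their order of FB and FW therefore ranks undetected signals, with FB above FW on 2 of 4 days for each. For SOX17 BW minus FBW was -0.62 without day 4. The difference between FB and FW was not tested. FB minus FW was 0.50 ± 0.59 for FOXA1 and 0.49 ± 0.63 for LINC00261 (SD, n = 4 days), with FB above FW on 4 of 4 days for each although most of these signals were not detected, and 0.10 ± 0.53 for HHEX, with FB above FW on 3 of 4 days.

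**Figure D2:**
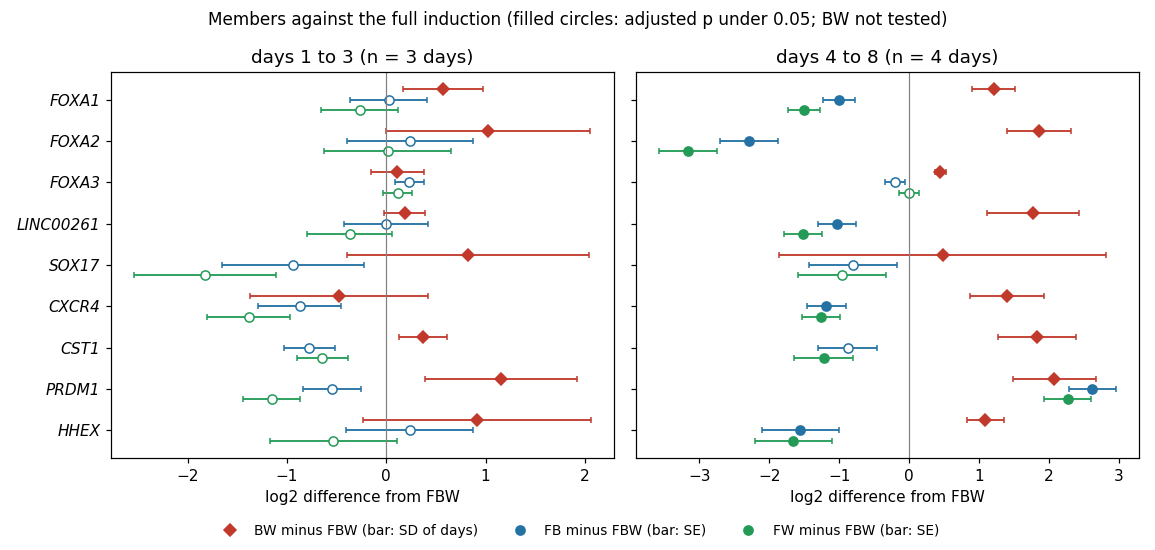
Log2 difference from FBW (horizontal axes) of each gene (vertical axis) in BW, FB and FW, on days 1 to 3 and days 4 to 8, with bars for the SD of the daily differences in BW and for the SE of the fit in FB and FW. On the right, FOXA2 stands at 1.86 in BW, -2.29 in FB and -3.17 in FW, whereas PRDM1 lies above 2 in all of them.

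On days 1 to 3 no gene of the set was called in FB or FW. In FB minus FBW 0 of 9 genes passed limma's test where 0.243% of 11514 genes were called, and in FW minus FBW 0 of 9 passed where 0.912% were. At an unadjusted p under 0.05 there was 1 gene in FB, CST1, where 28.2% of all genes had such a p, and 4 in FW, SOX17, CXCR4, CST1 and PRDM1, where 29.5% had. In FW, PRDM1 averaged 4.71 and was not detected, against 5.87 in FBW, at least 1.77-fold lower (limma adjusted p = 0.0620). SOX17 averaged 4.93 in FW and 6.76 in FBW, a difference of -1.83 ± 0.71 (SE; limma adjusted p = 0.134). When day 1 was left out, 4 genes passed in FW, which were SOX17, CXCR4, CST1 and PRDM1, and 1 in FB, which was CST1, but 24.6% of 11207 genes were then called in FW and as many in FB. Array weights gave 4 calls in FW and 3 in FB, where 22.9% and 31.7% of all genes were called.

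Whether the arm effect itself differed between the windows was tested as an interaction. In FB minus FBW it did for 2 of 9 genes, where 11.4% of 12662 genes were called, and in FW minus FBW for 2 of 9, where 13.9% were. They were FOXA2 and PRDM1 in each case. For PRDM1 the effect of FB moved by 3.17 ± 0.49 and that of FW by 3.43 ± 0.49 (SE; limma adjusted p of 0.000987 and 0.000441). For FOXA2 the effect of FB moved by -2.53 ± 0.79 and that of FW by -3.18 ± 0.79 (SE; limma adjusted p of 0.0450 and 0.0139). The PRDM1 calls held with any day left out. The FOXA2 call in FB was lost without day 2, 3, 5, 6 or 8, with limma adjusted p values up to 0.196, and that in FW without day 2 or 5, at 0.0777 and 0.0597.

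Day means averaged over the arms differed for 6 of 9 genes by an F test with arm as a block, where 49.2% of 12662 genes were called. The test does not show that each arm ran alike, and the arm effects on PRDM1 and FOXA2 differed between the windows in the interaction test above. HHEX was not called in that test, although on days 6 and 8 it was detected in BW and FBW and not in FB. FOXA3 and CST1 had their lowest means over the 4 arms on day 8, at 6.51 and 4.85, after highest means of 8.32 on day 4 and 8.79 on day 2 (limma adjusted p of 2.50e-07 and 1.58e-06). PRDM1 was highest on day 6 and lowest on day 1, at means of 8.17 and 5.43 (limma adjusted p = 0.00600). SOX17 was highest on day 3, at 6.83, and lowest on day 5, at 4.40 (limma adjusted p = 0.0180). FOXA1 had its highest mean on day 3, at 6.53, and HHEX on day 5, at 7.63 (limma adjusted p of 0.00335 and 0.0262). FOXA2, LINC00261 and CXCR4 did not pass, at limma adjusted p values of 0.107, 0.0867 and 0.166. The HHEX call was lost without day 1 or day 5, at 0.371 and 0.0907, and the SOX17 call without day 5, at 0.0535. With some day left out FOXA2 and LINC00261 did pass, at limma adjusted p values down to 0.0359 and 0.0334. The count of genes called ran from 4 to 7 with a day left out.

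To place the set among other endoderm genes and genes of the Nodal pathway, 4 lists with no member among them were counted in BW minus FBW: endoderm specification, Nodal signalling, liver, gut and foregut, and yolk sac endoderm. Of their 61 genes, 55 had a probe and 42 were tested on days 4 to 8. Of those, 6 rose, 14.3%, and 12 fell, 28.6%, with a median difference of 0.07, beside 13.2% and 12.5% of all genes. The Nodal signalling list held 5 of the 12 that fell and 0 of those that rose. On days 1 to 3, 0 of 38 passed limma's test where 0.00869% of all genes were called, and 6 had an unadjusted p under 0.05, where 12.4% of all genes had. Late calls in these lists numbered 8 in place of 18 without day 5 and 8 without day 6. A fit with fewer days has less power, and the share of all genes called in those fits was not counted.

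Endoderm specification genes went both ways in BW on days 4 to 8, as they did in FB and FW. KIT, a receptor on definitive endoderm and germ cells, rose by 1.66 ± 0.21, FZD5, a WNT receptor, by 1.62 ± 0.39 and OTX2, a factor of anterior endoderm and forebrain, by 1.37 ± 0.31 (SE; limma adjusted p of 0.000253, 0.0101 and 0.00778). GATA6 and GATA4, zinc finger factors of endoderm and heart, fell by 2.00 ± 0.24 and 1.81 ± 0.22 on the log2 scale (SE; limma adjusted p of 0.000177 and 0.000223). GATA6 had 5.44, 5.26, 5.32 and 5.23 in BW on days 4, 5, 6 and 8, against 8.20, 7.56, 6.99 and 6.51 in FBW. GPR37 fell by 1.71 on the log2 scale and MIXL1 also fell, so 3 of 12 tested genes rose and 4 fell.

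Nodal signalling genes fell or did not pass in BW on days 4 to 8, with 5 of 11 tested lower and 0 higher. NODAL, the ligand, had 4.57, 5.63, 4.90 and 5.03 in BW on days 4, 5, 6 and 8, against 5.32, 7.62, 7.13 and 7.01 in FBW, a difference of -1.74 ± 0.35 (SE; limma adjusted p = 0.00439). On days 1 to 3, when FOXA2 and SOX17 came up, NODAL averaged 8.13 in BW and 7.26 in FBW. It was lower in BW on 2 of those 3 days and did not pass (limma adjusted p = 0.724), as did 0 of the 11 genes in that window. FOXH1 and SMAD2, which carry the signal to genes, fell by 0.53 and 0.46 on the log2 scale. In FB 6 of the 11 Nodal genes fell and 0 rose, and in FW 6 fell and 2 rose. NODAL was not detected in FB or FW on days 4 to 8, where it was at least 3.11-fold and 3.21-fold lower than in FBW. In the liver, gut and foregut list APOA2, an apolipoprotein, rose by 1.29 ± 0.40 and VIL1, the microvillus protein villin, also rose, PROX1, a factor of liver and lymphatic vessels, fell by 1.36 on the log2 scale, and 9 of 12 did not pass. PROX1 was detected in BW on 1 of the 4 days, so its mean there includes undetected signals. In the yolk sac list LAMB1, a laminin chain, rose by 0.87 ± 0.19, NID2 and LAMA1, further basement membrane proteins, fell by 1.61 and 0.88 on the log2 scale, and 4 of 7 did not pass. Of the 12 liver, gut and foregut genes, 6 rose and 1 fell in FB, and 2 rose and 1 fell in FW. Of the 7 yolk sac genes, 1 rose and 3 fell in FB, and 1 rose and 4 fell in FW.

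**Figure D3:**
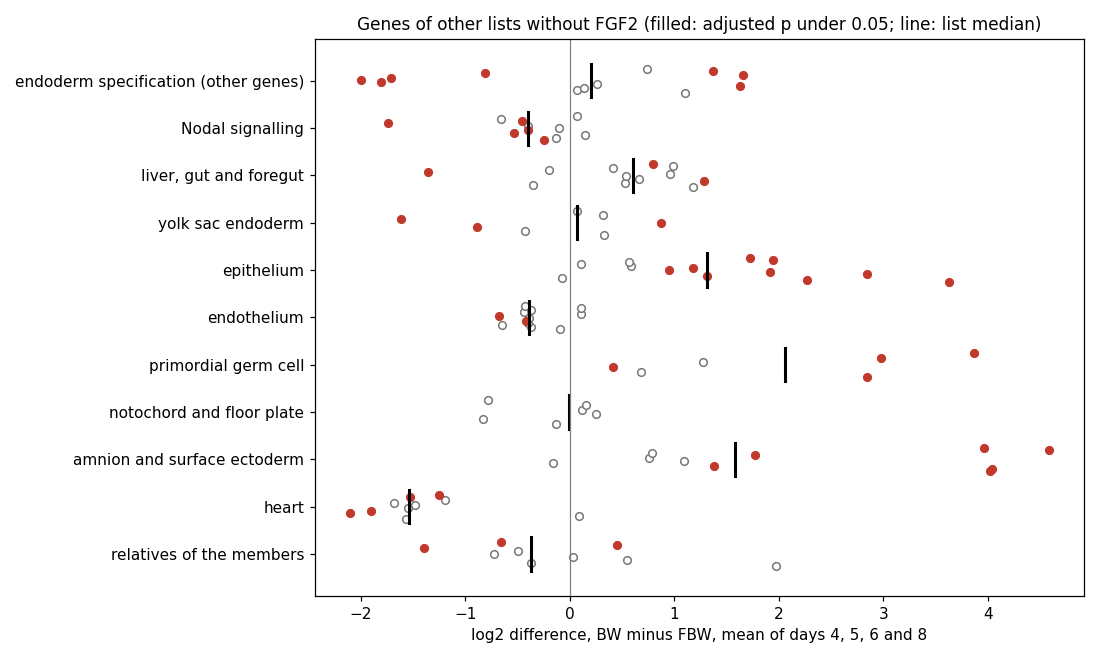
Log2 difference of BW minus FBW averaged over days 4, 5, 6 and 8 (horizontal axis) for each tested gene of 11 lists (vertical axis), filled where the adjusted p was under 0.05, with a line at the list median. Epithelial genes lie to the right, with 9 of 13 called higher, while endoderm specification genes are spread on both sides of 0.

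Markers of other cell types moved in BW together with the FOXA signals. Of 13 epithelial genes tested, 9 rose and 0 fell on days 4 to 8. CDH1, epithelial cadherin, had 11.68, 11.61, 11.57 and 11.61 in BW on days 4, 5, 6 and 8, against 7.91, 7.67, 7.63 and 8.75 in FBW, a difference of 3.63 ± 0.17 (SE; limma adjusted p = 8.49e-08). CLDN7 and CLDN3, tight junction claudins, rose by 2.84 ± 0.17 and 2.27 ± 0.23. CLDN3 was detected in FBW on 1 of the 4 days, so its mean there includes undetected signals. The summed linear signal of the 14 epithelial markers with a probe lay between 20690 and 22116 in BW, between 17822 and 26772 in FB, between 14664 and 22854 in FW and between 8957 and 11761 in FBW. Epithelial transcripts were therefore high in FB and FW as well, the arms where FOXA2 was lowest.

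Amnion and surface ectoderm genes rose in 6 of 10 cases and fell in 0. TFAP2A, a factor of surface ectoderm and amnion, rose by 4.58 ± 0.29, GABRP, a GABA receptor subunit, by 4.04 ± 0.89, and DLX5, a homeobox factor, was at least 13.6-fold higher in BW, as it was not detected in FBW (limma adjusted p of 1.29e-06, 0.00653 and 0.000209). GABRP was detected in FBW on 2 of the 4 days, so its mean there includes undetected signals. The list's summed linear signal on days 4 to 8 lay between 6874 and 14120 in BW, between 4689 and 20339 in FB, between 3342 and 18645 in FW and between 3451 and 5614 in FBW. Primordial germ cell genes rose in 4 of 6 cases. TFAP2C, which human germ cells use with SOX17 and PRDM1, had 9.08, 9.50, 9.19 and 8.51 in BW on days 4, 5, 6 and 8, against 5.67, 5.01, 4.80 and 5.36 in FBW, and it was also the only gene of all 11514 called in BW on days 1 to 3, at 2.58 ± 0.25 (SE; limma adjusted p = 0.0248). SOX15 rose by 2.98 ± 0.19 and ALPL, an alkaline phosphatase, by 2.84 ± 0.28 on days 4 to 8. TFAP2C and SOX15 were each detected in FBW on 2 of those 4 days, so their FBW values include undetected signals. The germ cell list's signal sum was 1120 to 2484 in BW, 1721 to 4648 in FB, 1998 to 4599 in FW and 156.2 to 592.6 in FBW, and 3965 on day 0, while DPPA3, a germ cell marker, was detected on 1 array of 29. The part of these cell types in the members' signals was not tested.

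Notochord and floor plate genes, the other place of FOXA2, did not pass in either direction in 6 of 6 cases, with 1 at an unadjusted p under 0.05, where 38.8% of all genes had such a p. SHH, the ligand made by both structures, was detected on 0 of 29 arrays and NOTO, a notochord factor, on 3. Of 12 endothelial genes tested 2 fell, KDR, the VEGF receptor, and ETV2, a factor of vessel and blood precursors. Heart genes fell in 4 of 10 cases and rose in 0. HAND2 had 5.00, 6.79, 6.90 and 7.21 in BW and 8.19, 9.07, 8.74 and 8.31 in FBW, a difference of -2.10 ± 0.32 (SE; limma adjusted p = 0.000804), and MEF2C and PDGFRA fell by 1.90 and 1.53 on the log2 scale. Among ligands, receptors and relatives of the members, HLX, a homeobox gene, fell by 1.40 on the log2 scale, PRDM6 also fell and PRDM4 rose by 0.46 ± 0.14, and 6 of 9 did not pass.

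Across the 28 induced arrays, which share their arms and days, FOXA1 and LINC00261 had a Pearson correlation of 0.96, LINC00261 and CXCR4 of 0.88 and FOXA1 and CXCR4 of 0.87. FOXA2 and its neighbour LINC00261 had 0.83. With each arm's mean removed these became 0.92, 0.80, 0.78 and 0.69. PRDM1 correlated with FOXA1 at 0.18 and with FOXA2 at -0.25. The values are a description of arrays that are not independent, with many undetected signals at the low end.

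**Figure D4:**
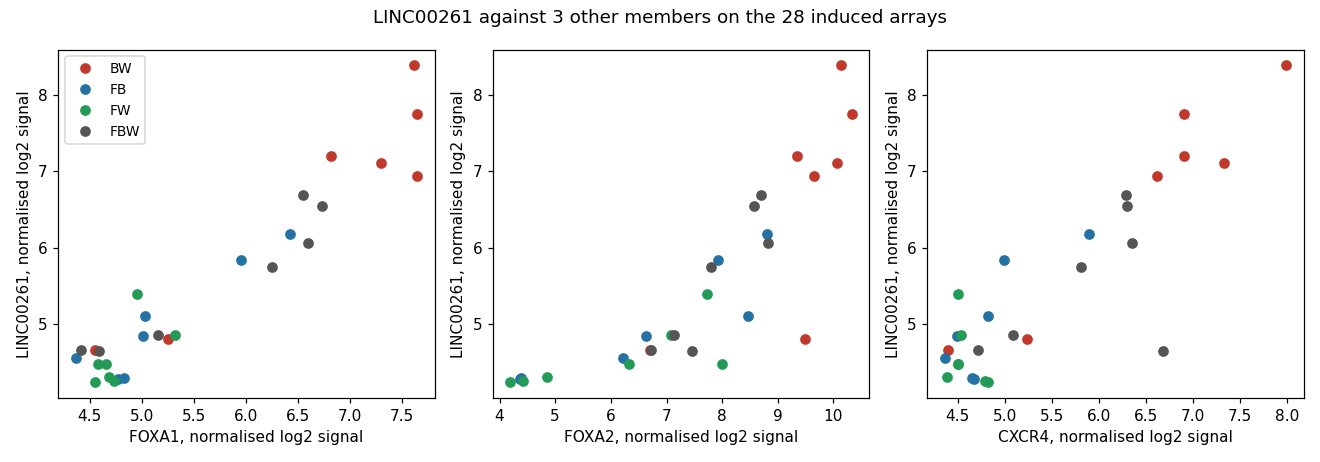
Normalised log2 signal of LINC00261 (vertical axes) against that of FOXA1, FOXA2 and CXCR4 (horizontal axes) on the 28 induced arrays, coloured by arm. The pair with FOXA1 lies closest to a line, while the BW array of day 2 has FOXA2 at 9.50 with LINC00261 at 4.80.

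Among 11615 genes detected on at least 7 induced arrays, those outside the set whose signal followed FOXA2 most closely were ASAP3, PGGHG, GALK1, CNTNAP1 and ARSL, with Pearson correlations of 0.84, 0.81, 0.81, 0.80 and 0.79 over 28 arrays. For SOX17 they were SAMD3, SERPINE2, BACE2, GABBR2 and LRRC3DN, at 0.87, 0.85, 0.84, 0.82 and 0.81. Their Spearman correlations with SOX17 were 0.65, 0.79, 0.84, 0.61 and 0.78. SAMD3, GABBR2, LRRC3DN and ARSL were detected on 8, 12, 14 and 17 of the 28 arrays, so their correlations include many undetected signals. The lists for FOXA2 and SOX17 shared 0 genes.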

How the data were processed

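Arrays of 28 induced samples and 1 day 0 sample were read. Per the labels, total RNA was column purified, amplified with a 14 h transcription and labelled with biotin. The deposited raw table gives each probe's mean bead intensity, and a detection p-value beside it that was deposited with it in steps of 1 in 770. GenomeStudio is named in the submitters' processing notes. The authors' processed intensities (median 6.88 on each array, lowest -13.0) served as an alternative. The sources used here do not say how they were made. Those under 16, which include each array's median, were set to 16 before log2, so most values of that alternative were made equal.

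In R 4.3.3 with limma 3.58.1, raw intensities were background corrected, quantile normalised and brought to log2 by neqc at an offset of 16. A gene was its brightest probe by mean. Of 47323 probes, 30113 had 1 symbol, 8 several and 17202 none. Genes detected on at least 3 arrays of a fit were tested with lmFit and eBayes (trend), day as block and all 4 arms sharing the spread: days 1 to 3 had 6 and days 4 to 8 had 9 residual degrees of freedom. Adjusted p-values are Benjamini-Hochberg over all genes tested. Scripts were tested on simulated data. Members, and the 11 lists of 151 genes (140 with a probe), were chosen with earlier results of these data known. Named list genes are up to 3 per list and direction by size in BW minus FBW, plus markers where a count is 0. CXCL12, CST2, CST4, CDH5, DPPA3 and MIXL1 were added after their values were seen. The number of arrays limits the precision.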

Additional observations from a re-analysis of the deposited data

Results flagged for a closer look

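The effect of leaving out the WNT activator, and that of leaving out BMP4, differed between days 4 to 8 and days 1 to 3 for 2 genes each by a test of the difference itself (limma, arm by window interaction, n = 3 and 4 days). PRDM1 moved by 3.17 in FB minus FBW (adjusted p = 0.000987) and by 3.43 in FW minus FBW (adjusted p = 0.000441). FOXA2 moved by -2.53 in FB minus FBW (adjusted p = 0.0450) and by -3.18 in FW minus FBW (adjusted p = 0.0139). The PRDM1 calls held with any 1 day left out. The FOXA2 call in FB was lost without day 2, 3, 5, 6 or 8, at adjusted p values up to 0.196, and also with quantile normalisation, the authors' table and no detection filter, at 0.0655, 0.0563 and 0.0620. The FOXA2 call in FW was lost without day 2 or day 5, at 0.0777 and 0.0597. Both comparisons use the same FBW arrays.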

How the results depend on the processing

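On days 4 to 8 the calls of FOXA1, FOXA2, CXCR4 and PRDM1 in FB and FW were kept under each alternative run: quantile normalisation without background correction, the authors' table, no detection filter, no replicate block, only the arms compared, array weights and each day left out. The late counts of members called, 6 in FB and 7 in FW, ran from 4 to 6 and from 5 to 6 with a day left out. The others were less steady. HHEX in FB had an adjusted p of 0.0512 without the replicate block (day) and 0.0958 with only the arms compared. CST1 in FW had 0.0898 with quantile normalisation, 0.165 without the replicate block and 0.0663 with array weights. On days 1 to 3 array weights gave 3 calls in FB and 4 in FW in place of 0, and leaving out a day gave 0 to 1 and 0 to 4. Other endoderm and Nodal genes called in BW numbered 0 to 5 early and 8 to 17 late with a day left out, and 6 late without the replicate block in place of 18. The share of all genes called in the late runs with a day left out or without the block was not counted. The interaction count in FB was 1 in place of 2 with quantile normalisation, with the authors' table and without the detection filter, and 1 to 2 with a day left out, and in FW 1 to 4. The late median of members in BW minus FBW was 0.84 with quantile normalisation in place of 1.40. Signs turned for differences that passed in neither form: on days 1 to 3 in FB, FOXA1 to -0.0226 with quantile normalisation and -0.0301 with the authors' table, LINC00261 to 0.00704 with the authors' table and 0.32 with array weights, and HHEX to -0.35 with array weights, and in FW, FOXA2 to -0.0213 with quantile normalisation. With a day left out, days 1 to 3 ran in FB from -0.18 to 0.0639 for FOXA1, -0.14 to 0.61 for FOXA2, -0.23 to 0.0465 for LINC00261 and -0.30 to 1.01 for HHEX, in FW from -0.62 to 0.77 for FOXA2 and -1.13 to 0.20 for HHEX, and days 4 to 8 in FW from -0.13 to 0.10 for FOXA3. Over all genes the early calls were 28, 6 and 28 in FB, 105, 33 and 96 in FW and 1, 5 and 1 in BW with neqc, quantile normalisation and the authors' table, and 63.6% of the FW calls were higher with quantile normalisation against 50.5% with neqc. The causes were not tested. Undetected signals carry a bound only, which limits FOXA1, FOXA2, LINC00261, CXCR4, CST1, SOX17 and HHEX in FB and FW. The same limit falls on BW minus FBW for LINC00261, SOX17 and CST1 on days 4 to 8 and for FOXA1, LINC00261, CXCR4 and HHEX on days 1 to 3.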
